A study of Mus musculus with 10 samples.

Results

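Müller glia span the whole thickness of the retina and keep the surroundings of its neurons stable. The 9 genes described here were chosen by name for that role or as markers of these cells, and all 9 were found among the 11702 genes measured. Glul, Slc1a3, Kcnj10, Aqp4 and Car2 serve the handling of glutamate, potassium, water and acid. Sox9 is a transcription factor that marks glial identity, Clu and Dkk3 encode secreted proteins, and Abca8a encodes a lipid transporter of the ABC family. Libraries of mRNA from the retinas of 10 female mice were sequenced. The 4 WT mice (W1 to W4) received DMSO, the vehicle. Of the rd10 mice, which carry a defect in the rod gene Pde6b and lose their rods, 3 received DMSO (D1 to D3) and 3 received 20 µM halofantrine (HAL, H1 to H3), an antimalarial drug. Every mouse was injected in the vitreous with 1 µL at P10 and again at P24 (postnatal days), and retinas were collected at P36. By the labels, batch 2 held D3, H2 and H3, and batch 1 all other libraries, every WT library included. The labels do not say how the WT mice were related to the rd10 line. The rd10 line is B6.CXB1-Pde6b rd10/J.

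Müller cells take up the glutamate released by neurons through the transporter GLAST (Slc1a3) and turn it into glutamine with glutamine synthetase (Glul). The glutamine is returned to neurons, which make new transmitter from it. Potassium that builds up around active neurons enters the glia through the inward rectifier Kir4.1 (Kcnj10), and water follows through aquaporin-4 (Aqp4). Kir4.1 and aquaporin-4 are held at the glial endfeet by a dystrophin complex. Carbonic anhydrase II (Car2) interconverts carbon dioxide and bicarbonate.

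The upstream sequences of 2 of these genes are shown as examples. Without the library labelled WT W4, the difference of Kcnj10 from WT, given further on, passed the test under every scaling of the libraries that was run. Those of Slc1a3, Glul and Abca8a passed under all but the scaling to inner retinal neurons. The sequences shown are the 250 bases before the RefSeq start of each gene in build GRCm38.p6. They lie at chr1:172340960-172341209 on the plus strand for Kcnj10 and at chr15:8710808-8711057 on the minus strand for Slc1a3. Capitals mark ACAAT or its reverse complement ATTGT, the core letters bound by SOX proteins, searched on both strands.
Kcnj10: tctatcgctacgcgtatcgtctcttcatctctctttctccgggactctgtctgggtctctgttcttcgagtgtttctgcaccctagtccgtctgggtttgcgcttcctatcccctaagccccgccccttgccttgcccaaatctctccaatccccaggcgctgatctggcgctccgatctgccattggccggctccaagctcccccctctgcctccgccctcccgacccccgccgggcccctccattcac
Slc1a3: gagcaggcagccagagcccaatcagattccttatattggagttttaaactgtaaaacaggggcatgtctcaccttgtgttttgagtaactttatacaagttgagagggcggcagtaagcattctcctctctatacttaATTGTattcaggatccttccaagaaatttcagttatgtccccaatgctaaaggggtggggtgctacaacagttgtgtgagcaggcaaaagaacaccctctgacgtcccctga
The Slc1a3 window held 1 match and the Kcnj10 window 0, and 27.66% of 32851 windows of that length held at least 1. The Kcnj10 window was richer in G and C, at 62% with 17 CpG dinucleotides, than that of Slc1a3, at 44.8% with 2, beside medians over all windows of 52.4% and 6. Windows of Glul and Abca8a were also matched and held 0 and 1 match. These counts describe letters and not sites.

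The libraries held 15512212 to 38160436 estimated counts on genes, and each of the 9 genes had at least 192 counts in every library (the lowest was Sox9). Levels are given as CPM, the counts of a gene relative to the total of its library, after scaling by the trimmed mean of M values (TMM) over all 10 libraries. One library went against its label. The library labelled WT W4 held 93.1 CPM of Pde6b where the other WT libraries held 2699 to 2855 CPM. This is below all 6 rd10 libraries, the lowest of which was H1 at 125 CPM. The 13 rod markers summed to 80298 to 84411 CPM in W1 to W3, to 3198 CPM in the library labelled WT W4 and to 4062 to 11866 CPM in the rd10 libraries. The comparisons of the 9 genes with WT are therefore given both without and with that library.

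Among the 9 genes, Glul was the most abundant transcript per unit of length in each group, and by far so in W1 to W3. In W1 to W3 it was at 814 ± 20.6 CPM per kb (SD, n = 3), followed by Clu at 266 ± 31.9, Car2 at 232 ± 9.30, Dkk3 at 193 ± 10.1, Slc1a3 at 51.7 ± 3.03, Abca8a at 49.9 ± 3.37, Aqp4 at 26.9 ± 1.27, Kcnj10 at 12.8 ± 0.754 and Sox9 at 2.78 ± 0.0671 CPM per kb. Of these neighbours, only Slc1a3 and Abca8a had overlapping libraries, while those of Clu and Car2 came close. In the rd10 DMSO libraries the order was the same except that Dkk3, at 400.5 ± 26.7 CPM per kb, stood above Car2, at 251 ± 13.0 CPM per kb. Glul there was at 1199.5 ± 78.8 and Clu at 948 ± 93.8 CPM per kb. A single transcript carried at least 88.3% of the counts matched to the reference in each library for every one of the 9 genes. For Aqp4, the matched counts were 69.4% to 94.6% of the counts on the gene, so its value per length is the least certain.

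The first question was how these genes differed between rd10 retinas, low in rod transcripts, and WT retinas. Without the library labelled WT W4, 8 of the 9 genes rose in rd10 DMSO retinas and Car2 did not pass the test. The rise ran from 1.49-fold for Glul to 3.59-fold for Clu. Across all genes, 62.2% passed the test in this comparison, 32.3% rose and 29.9% fell. The median log2 difference of the 9 genes was 0.77, beside -0.01 for all genes tested. Every rd10 DMSO library lay above W1 to W3 for 9 of 9 genes, against 33.7% of all genes, although for Car2 this rested on 427 against 425 CPM and the groups overlapped in the deposited CPM. In RNA of a whole retina, a larger share of cells of a type and more RNA per cell cannot be told apart. Nor can fewer cells of a type and less RNA per cell.

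**Figure D1:**
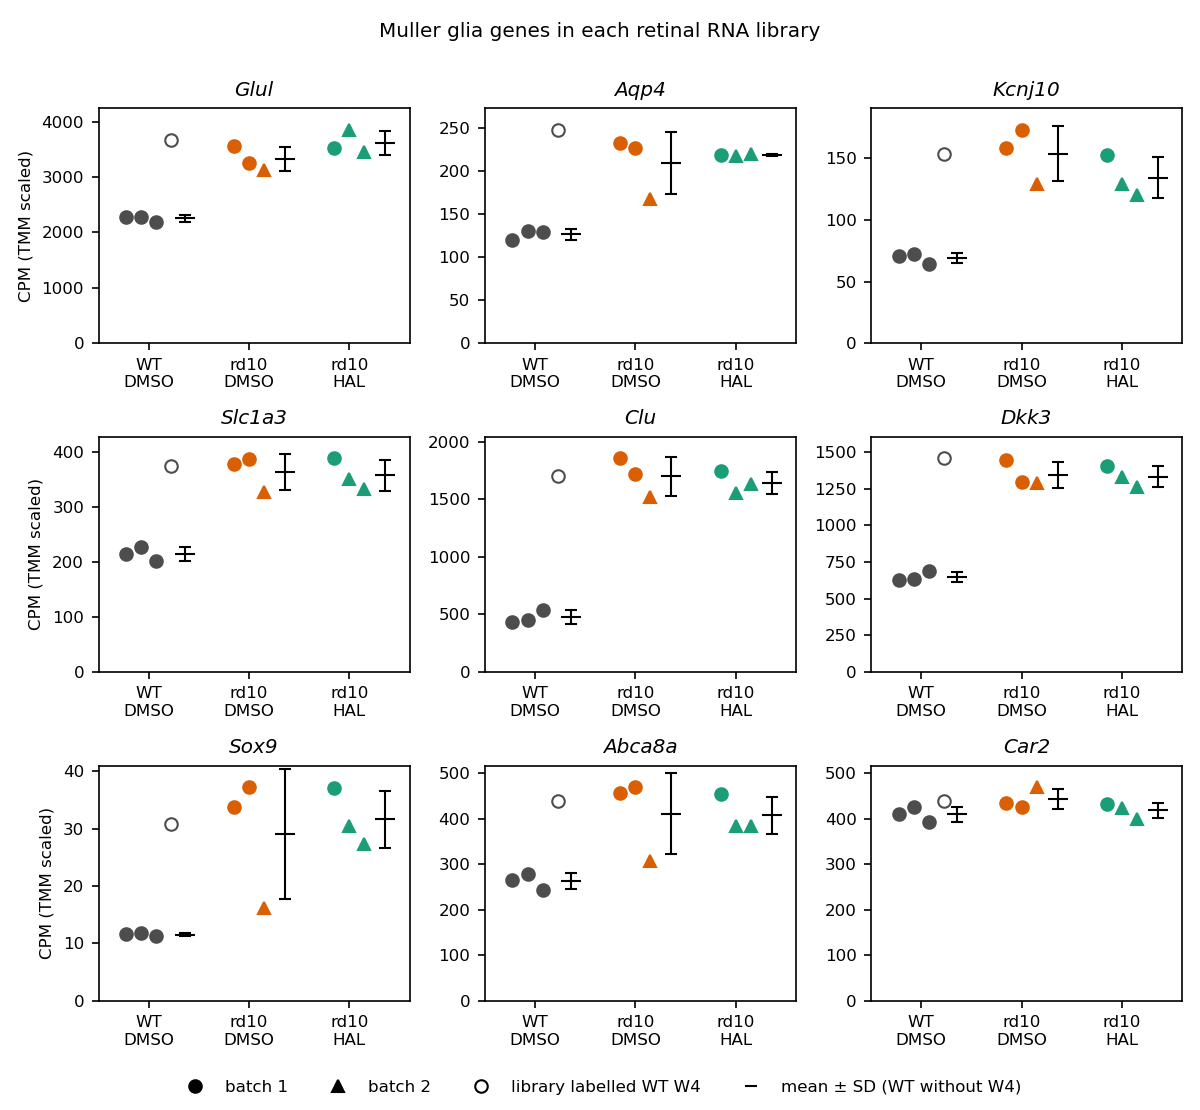
Level of each of the 9 genes in every library, in CPM after TMM scaling, on axes that start at 0. Points are libraries (circles batch 1, triangles batch 2, open circle the library labelled WT W4), and bars give the mean ± SD of 3 libraries a group, without that library for WT. The open circle sits among the rd10 libraries for 7 of the 9 genes and above them for Aqp4 and Dkk3.

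The glutamate pair rose by a similar factor. Slc1a3 measured 215, 227 and 202 CPM in W1 to W3, 379, 387 and 327 CPM in D1 to D3 and 375 CPM in the library labelled WT W4. Without that library the log2 difference was 0.77 ± 0.08 (SE, edgeR's quasi-likelihood test, adjusted p = 0.000199). Glul measured 2284, 2281 and 2184 CPM in W1 to W3, 3557, 3259 and 3133 CPM in D1 to D3 and 3668 CPM in the library labelled WT W4. For Glul the log2 difference was 0.57 ± 0.09 (SE, adjusted p = 0.000852). For neither gene did the rd10 DMSO libraries overlap with W1 to W3.

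Of the channels, Kcnj10 had the larger difference. Kcnj10 measured 70.4, 72.4 and 64.6 CPM in W1 to W3, 159, 174 and 130 CPM in D1 to D3 and 153 CPM in the library labelled WT W4. Its log2 difference was 1.17 ± 0.11 (SE, adjusted p = 0.000109). Aqp4 measured 119, 131 and 129 CPM in W1 to W3, 232, 227 and 168 CPM in D1 to D3 and 248 CPM in the library labelled WT W4. Aqp4 differed by a log2 value of 0.74 ± 0.12 (SE, adjusted p = 0.00145). D3 was the lowest rd10 DMSO library for both genes.

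The secreted proteins included the gene with the largest difference of the 9. Clu, which encodes the extracellular chaperone clusterin, measured 434, 454 and 542 CPM in W1 to W3, 1857, 1724 and 1522 CPM in D1 to D3 and 1701 CPM in the library labelled WT W4. On the log2 scale Clu differed by 1.85 ± 0.12 (SE, adjusted p = 2.52e-05). Dkk3, of the Dickkopf family of secreted proteins, measured 624, 635 and 688 CPM in W1 to W3, 1449, 1296 and 1291 CPM in D1 to D3 and 1457 CPM in the library labelled WT W4. Dkk3 differed by a log2 value of 1.06 ± 0.08 (SE, adjusted p = 4.87e-05). The groups were well apart for both genes.

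Sox9 and Abca8a varied most among the rd10 DMSO libraries. Sox9 measured 11.6, 11.7 and 11.2 CPM in W1 to W3, 33.9, 37.3 and 16.2 CPM in D1 to D3 and 30.8 CPM in the library labelled WT W4. Its log2 difference was 1.36 ± 0.28 (SE, adjusted p = 0.00416), and 1.64 without D3. Abca8a measured 266, 279 and 243 CPM in W1 to W3, 455, 469 and 308 CPM in D1 to D3 and 438 CPM in the library labelled WT W4. Its log2 difference was 0.66 ± 0.16 (SE, adjusted p = 0.00790), and 0.82 without D3. D3 was the rd10 DMSO library nearest to WT for both genes.

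Car2 stood apart from the other 8. It measured 410, 425 and 393 CPM in W1 to W3, 433, 427 and 469 CPM in D1 to D3 and 439 CPM in the library labelled WT W4. Its log2 difference was 0.12 (95% interval -0.04 to 0.29, adjusted p = 0.155), an interval that lies below those of the other 8 genes, which start at 0.29 for Abca8a and at 0.37 or more for the rest. D3 was here the highest library.

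Leaving out D3 left only libraries labelled batch 1. The library names also hold a set, which is set1 for W1 to W3, set1_5 for W4 and set2 for D1, D2 and H1, so set and genotype cannot be told apart. In this comparison the same 8 genes rose, by 0.61 (Glul) to 1.92 (Clu) on the log2 scale, and Car2 differed by 0.08 (edgeR, adjusted p = 0.205).

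With the library labelled WT W4 included, 0 of the 9 genes passed edgeR's test, and 0% of all genes did, although 3108 genes had an unadjusted p under 0.05 and DESeq2 called 589, none of them among the 9. All 9 genes had a higher mean in rd10 DMSO, with a median log2 difference of 0.52. For 0 of 9 genes did every rd10 DMSO library lie above all 4 WT libraries, beside 4.6% of all genes. That library was at 3.57 times the mean of W1 to W3 for Clu, 2.67 times for Sox9, 2.24 times for Dkk3, 2.22 times for Kcnj10 and 1.07 times for Car2.

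Without the library labelled WT W4, the size of these differences depended on what the libraries were scaled to. An alternative scaling set each library to 31 markers of bipolar, amacrine and ganglion cells. It moved the median of all genes to -0.58 on the log2 scale, and 8.51% of genes were then higher and 68.3% lower in rd10 DMSO. On this scale 4 of the 9 genes were still higher, Clu by 1.27, Sox9 by 0.76, Kcnj10 by 0.59 and Dkk3 by 0.49 (log2, edgeR adjusted p of 0.0152 or less). Slc1a3 at 0.20 (adjusted p = 0.0507), Aqp4 at 0.15, Abca8a at 0.07 and Glul at -0.0005 did not pass the test. Car2 was lower, at -0.44 (adjusted p = 0.00810), which is above the median of all genes. With that library included, 0 of the 9 genes passed the test on this scale, and the median of all genes was -0.43.

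**Figure D2:**
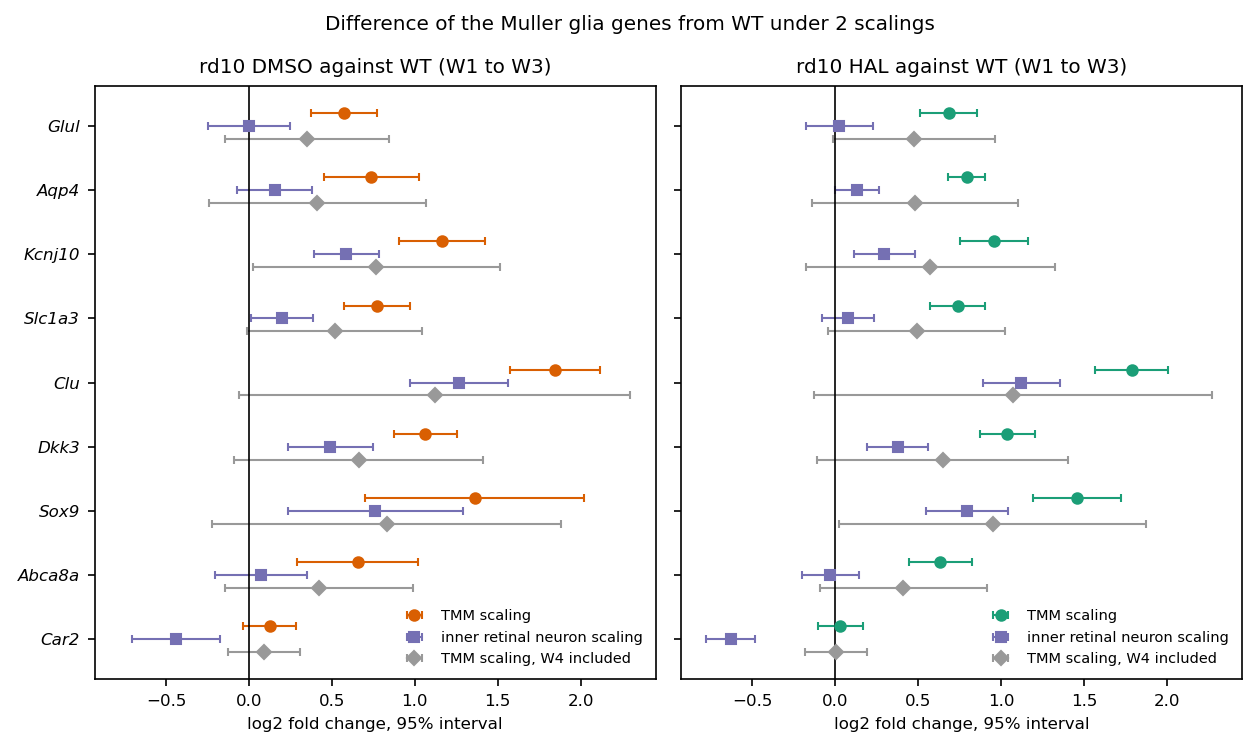
Log2 fold change of each gene from WT in rd10 DMSO retinas (left) and rd10 HAL retinas (right), with 95% intervals from edgeR. Circles use TMM scaling without the library labelled WT W4, squares the scaling to inner retinal neurons without it, and diamonds TMM scaling with it. The squares of Clu, Sox9, Kcnj10 and Dkk3 lie to the right of 0 and passed the test in both panels, and those of Car2 passed to its left. Those of Aqp4 and Slc1a3 also lie to the right of 0 in both panels but did not pass.

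Other genes of the same tasks did not move as a block. The counts of these and the following lists leave out the library labelled WT W4. With it, 0 genes of every list passed the test. Of 10 further genes of glutamate handling, 5 rose and 2 fell in rd10 DMSO (median log2 difference 0.28), beside 32.3% and 29.9% of all genes. The cystine and glutamate exchanger Slc7a11 rose by 1.29 and the glutamate transporter Slc1a1 by 0.94 on the log2 scale. For Slc7a11 the groups overlapped, with 11.7 CPM in D2 and 13.7 CPM in W3. The glutamine transporter Slc38a3 fell by 0.76 and the glutamate transporter Slc1a2, known from photoreceptor and bipolar cells, fell by 0.20. On the inner retinal neuron scale, where 8.51% of all genes were higher and 68.3% lower, 1 of these 10 genes was higher and 5 were lower.

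Of 10 tested genes of potassium, volume regulation and the dystrophin complex (13 listed), 5 rose and 2 fell (median 0.48), beside the same 32.3% and 29.9%. Dystrobrevin alpha (Dtna) rose by 0.73 and syntrophin beta 1 (Sntb1) by 0.70. Dystrophin (Dmd), which photoreceptors also use at their synapses, fell by 1.44. On the inner retinal neuron scale 0 genes of this list were higher and 4 were lower, beside 8.51% and 68.3% of all genes.

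Of 8 tested genes of acid and lactate transport (9 listed), 3 rose and 2 fell (median 0.01), shares near the 32.3% and 29.9% of all genes. The sodium bicarbonate cotransporter Slc4a4 rose by 1.17 and the membrane carbonic anhydrase Car14 by 0.95 on the log2 scale. The monocarboxylate transporters Slc16a1 and Slc16a3 fell by 1.37 and by 0.78. Car14 measured 77.3, 85.0 and 80.6 CPM in W1 to W3 and 146, 134 and 186 CPM in D1 to D3, with no overlap. On the inner retinal neuron scale 2 genes of this list were higher and 5 were lower, a share near the 68.3% of all genes.

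Most genes of glial identity rose with TMM scaling, where 32.3% of all genes rose. Of 10 tested transcription factors of Müller glia and late progenitors (12 listed), 8 rose and 1 fell (median 0.97). Nfix rose by 1.13 and Rax fell by 0.88 on the log2 scale. Of 15 other Müller glia markers tested (16 listed), 14 rose and 0 fell (median 0.93), with Apoe at 1.54 and Crym at 1.52. All 13 genes of reactive gliosis rose (median 2.78), with the protease inhibitors Serpina3n at 5.31 and A2m at 4.43 on the log2 scale. With the library labelled WT W4 these were 2.30 (edgeR, adjusted p = 0.234) and 2.03 (adjusted p = 0.230), and the gliosis median was 1.61. On the inner retinal neuron scale 4 of the transcription factors were higher and 1 was lower, 8 of the markers were higher and 1 was lower, and 12 of the gliosis genes were higher and 0 lower, beside 8.51% and 68.3% of all genes. The closest paralog tested, Abca8b, differed by 0.17 (edgeR, adjusted p = 0.520), and reads of the closely related Abca8 genes may be split between them, so Abca8a is less certain than the rest. The other paralogs tested were Abca6, which fell by 0.48, and Abca5, at -0.07 (adjusted p = 0.368).

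Markers of other retinal cells moved as well with TMM scaling, where 32.3% of all genes rose and 29.9% fell. Of the tested markers, 8 of 12 for bipolar cells rose and 1 fell (median 0.69), 8 of 10 for amacrine cells (0.68), 8 of 9 for ganglion cells (0.44) and 4 of 4 for horizontal cells (1.20), while all 13 for rods fell (-3.29). Cone markers were mixed, with 4 of 10 higher and 2 lower (0.13). Of endothelial markers 3 of 6 rose (8 listed, 0.54). Of astrocyte markers 4 of 4 tested rose (6 listed, sums of 459 to 514 CPM in W1 to W3 and 569 to 645 CPM in D1 to D3), of microglia markers 6 of 6 (12 listed, 46.4 to 52.1 CPM and 155 to 196 CPM) and of pigment epithelium markers 2 of 6 (9 listed, 32.7 to 116 CPM and 64.2 to 294 CPM). On the inner retinal neuron scale 8.51% of all genes were higher and 68.3% lower. There 0 cone markers were higher and 7 lower, a share near that of all genes. Of astrocyte markers 2 were higher and 1 lower, of horizontal cell markers 2 and 0, and of endothelial markers 2 and 1. All 6 microglia markers were higher. The part of these cells in the levels of the 9 genes was not tested.

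**Figure D3:**
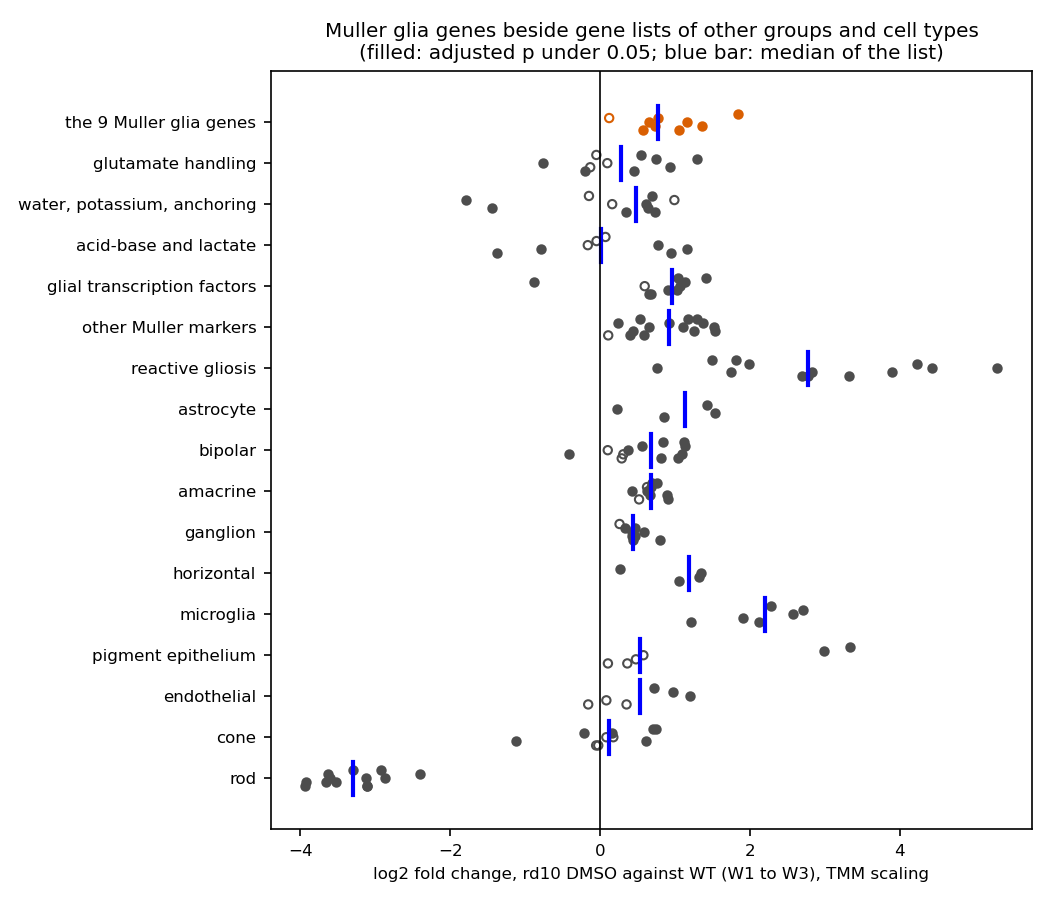
Log2 fold change of every tested gene of each list, rd10 DMSO against W1 to W3, with TMM scaling. Each point is a gene (filled where the adjusted p is under 0.05) and each blue bar is the median of its list. The 9 genes (top row) have a median of 0.77, between the ganglion cell markers at 0.44 and the gliosis genes at 2.78, and the rod markers lie at the far left with a median of -3.29.

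The second question was whether halofantrine changed these genes in rd10 retinas. For 0 of the 9 genes did the HAL and DMSO libraries separate (13.1% of all genes did), and 0 passed edgeR's test. Across all genes 0% passed, 557 had an unadjusted p under 0.05 and DESeq2 called 3. The log2 differences of the 9 genes lay between -0.20 for Kcnj10 and 0.12 for Glul, with adjusted p-values of 0.883 to 0.992.

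Glul was at 3523, 3855 and 3458 CPM in H1 to H3, beside 3133 to 3557 CPM in DMSO, and its fold was 1.09 (95% interval 0.968 to 1.22). Slc1a3 was at 389, 352 and 334 CPM, with a fold of 0.981 (0.847 to 1.14). Clu was at 1747, 1555 and 1632 CPM, with a fold of 0.966 (0.839 to 1.11). The intervals of these abundant genes reach from 0.839-fold to 1.22-fold.

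Kcnj10 was at 153, 130 and 121 CPM in H1 to H3, with a fold of 0.872 (95% interval 0.706 to 1.08). Aqp4 was at 218, 218 and 220 CPM, with a fold of 1.04 (0.858 to 1.27). Dkk3 was at 1403, 1330 and 1265 CPM, with a fold of 0.990 (0.880 to 1.11). The groups overlapped for each of these genes.

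Sox9 was at 37.1, 30.4 and 27.3 CPM in H1 to H3, with a fold of 1.07 and the widest interval of the 9 genes (0.677 to 1.71). Abca8a was at 454, 383 and 384 CPM, with a fold of 0.990 (95% interval 0.760 to 1.29). Car2 was at 433, 422 and 400.0 CPM, with a fold of 0.943 (0.850 to 1.05). The width for Sox9 and Abca8a came with the spread of the DMSO group, in which D3 was low.

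The 2 batches gave unlike values for some genes. Within batch 2, which has 1 DMSO library (D3), the HAL mean was above DMSO by 0.83 for Sox9, 0.38 for Aqp4 and 0.32 for Abca8a on the log2 scale. Within batch 1, which has 1 HAL library (H1), the same differences were 0.06, -0.07 and -0.03. For Kcnj10 they were -0.12 in batch 1 and -0.05 in batch 2. In batch 2 the library names give DMSO (final) and HAL (last) another set each, so set and treatment cannot be told apart there. With batch as a term in the model, 0 of the 9 genes and 0 of all genes passed the test, and 1943 genes had an unadjusted p under 0.05. The estimates of the 9 genes then had a median of 0.04 in place of -0.02, with 7 in place of 3 above 0, and that of Sox9 was 0.42 in place of 0.10.

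**Figure D4:**
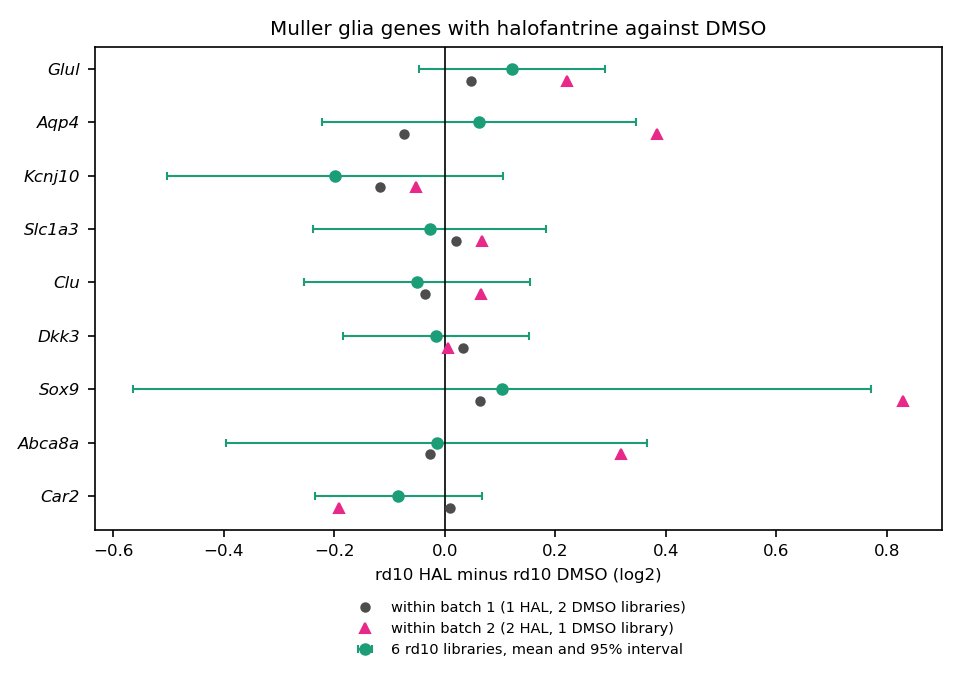
Difference between rd10 HAL and rd10 DMSO for each gene on a log2 scale. Large circles with bars are edgeR estimates with 95% intervals over 6 libraries, small circles are values within batch 1 and triangles values within batch 2. Every bar crosses 0, and the triangles of Sox9, Aqp4 and Abca8a, which rest on D3 as the only DMSO library, lie beyond the upper end of their bars or near it.

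Against WT without the library labelled WT W4, rd10 HAL retinas showed the same 8 genes higher, where 71.9% of all genes passed the test and 35.7% rose. Every HAL library lay above W1 to W3 for 8 of 9 genes, against 37.6% of all genes, the exception being Car2. The log2 differences were 1.79 for Clu, 1.46 for Sox9, 1.04 for Dkk3, 0.96 for Kcnj10, 0.79 for Aqp4, 0.74 for Slc1a3, 0.68 for Glul and 0.63 for Abca8a. Car2 differed by 0.03 (95% interval -0.10 to 0.17, edgeR adjusted p = 0.658). This comparison shares W1 to W3 with that of the DMSO libraries, so the likeness of the 2 is not independent support. H2 and H3 were batch 2 and every WT library batch 1, so batch and group cannot be fully told apart here. Scaled to inner retinal neurons, Clu (1.12), Sox9 (0.79), Dkk3 (0.38) and Kcnj10 (0.30) were higher, as were 8.45% of all genes. Car2 (-0.63) was lower, as were 74.8% of all genes, and lay near the median of all genes on that scale (-0.68). With that library included, 0 of the 9 genes passed the test, beside 0.00855% of all genes (1 gene).

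Within the rd10 retinas, some of the 9 genes differed between batches. With treatment as a term in the model, Abca8a fell in batch 2 by 0.42 (edgeR, adjusted p = 0.0352) and Kcnj10 by 0.33 (adjusted p = 0.0350), 2 of 9 genes where 4.63% of all genes passed the test and 1.55% fell. Sox9 at -0.73 (adjusted p = 0.0579) and Slc1a3 at -0.21 (adjusted p = 0.0577) did not pass. Neither did Aqp4 (-0.22), Clu (-0.18), Dkk3 (-0.10), Glul (-0.04) or Car2 (0.02). All 13 rod markers rose in batch 2 (median log2 difference 1.22). Their sums were 8417 to 11866 CPM, beside 4062 to 4440 CPM in the rd10 libraries of batch 1. Of cone markers 2 of 10 rose and 0 fell, and of gliosis genes 2 of 13 rose and 1 fell. For bipolar cells 2 of 12 markers fell, for amacrine cells 2 of 10 and for Müller glia 2 of 15, and 0 rose. Of the glial transcription factors 2 of 10 fell and 0 rose. The part of other cells in the lower glial values was not tested. The call for Kcnj10 and Abca8a was lost without D1, D2, D3, H2 or H3, and without H1 5 of the 9 genes passed. Over these 6 omissions the log2 difference of Kcnj10 stayed between -0.36 and -0.29, while that of Abca8a ran from -0.59 to -0.24.

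The genes whose profile over all 10 libraries was nearest to the mean profile of the 9 genes, by Euclidean distance of centred log2 CPM, were Foxn3 (0.103), Slc24a3 (0.129), Src (0.137), Slc6a11 (0.153) and Runx1t1 (0.153). Slc6a11 encodes the GABA transporter GAT3 and is also one of the Müller glia markers listed. These 5 genes rose by 0.88 to 0.93 on the log2 scale in rd10 DMSO without the library labelled WT W4. They were picked by their profile over these same libraries, so a rise near that of the 9 genes followed from the choice. Among the 9 genes themselves the distance was smallest for Slc1a3 (0.264) and largest for Clu (1.35).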

How the data were processed

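Stranded mRNA libraries were made from total RNA of homogenized retinas. The authors pseudoaligned reads with Kallisto to Ensembl mouse release 115 and deposited estimated counts per transcript and per gene, imported with tximport. The authors' deposited CPM are these counts divided by 1 factor per library, a signal that sums to 943804 to 1127682. The deposited table of the authors' own comparison (fold changes and p-values) was not used.

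Symbols were found for 11492 of 11702 gene identifiers. Counts were rounded and tested with edgeR 4.0.16 (R 4.3.3): default expression filter, TMM scaling, quasi-likelihood test, Benjamini-Hochberg adjustment over all genes and a threshold of 0.05. SE is the log2 difference divided by the root of F. Levels are CPM. Lengths are count-weighted means of GENCODE M21 transcripts. Each library is 1 mouse as labelled, and p-values measure the spread between these libraries. No 2 of the 10 libraries agreed within sampling noise (chi-square per gene of 4.38 or more, where 1 would be noise; 9.27 to 48.7 between W4 and the rd10 libraries). On simulated counts 95% of 2-fold changes were recovered for rd10 DMSO against WT without W4, 20% with W4 and 92% for HAL against DMSO. For 1.5-fold changes these were 62%, 0% and 61%. The simulation changed 100 genes by each fold and held no batch difference, so these shares need not hold for the measured libraries. Alternatives used DESeq2 1.42.0, limma 3.58.1, other scalings and filters, and omission of each library.

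The 9 genes and all gene lists were chosen with earlier results of these data known. Genes named from a list are the 2 that rose and the 2 that fell most among those passing the test for rd10 DMSO against WT without W4 (all tested paralogs of Abca8a), plus the 5 genes nearest in profile. Some genes that this rule names are not reported here.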

Additional observations from a re-analysis of the deposited data

Results flagged for a closer look

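For 7 of the 9 genes 1 WT library, the one labelled W4, stood well away from the remaining 3. Its gap to the nearest WT library, as a share of the range of the group, was 0.972 for Sox9, 0.933 for Glul, 0.924 for Dkk3, 0.915 for Clu, 0.914 for Aqp4, 0.912 for Kcnj10 and 0.855 for Slc1a3, each above the critical value of 0.829 for 4 samples. Chance alone passes this value in about 1 of 20 groups, and the 9 genes share the same library.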

How the results depend on the processing

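Without the library labelled WT W4, 8 of the 9 genes passed the test against WT under every alternative run, in both rd10 groups, except for 2 scalings. Scaling by library size alone gave 9. Scaling to inner retinal neurons gave 5 in each group and turned the sign of Glul (-0.00050) and Car2 (-0.44) in rd10 DMSO and of Abca8a (-0.029) and Car2 (-0.63) in rd10 HAL. These scalings moved the median of all genes in rd10 DMSO to 0.19 and -0.58, and the genes called higher and lower from 3778 and 3502 to 5409 and 2031, and to 995 and 7990. Leaving out 1 library at a time gave 0 to 8 genes with that library in the WT group, in either rd10 group (8 only without W4), 8 throughout without it, and 0 for HAL against DMSO. For batch it gave 0 to 5 of the 9 genes (2 with all libraries). Over all genes, rd10 DMSO against all 4 WT libraries had 0 calls, 589 by DESeq2 and 7280 without W4. rd10 HAL had 1, 2221 and 8408. HAL against DMSO had 0, with 3 by DESeq2, 1 without D1 and 7 without D2. Batch had 542, and 91 (without D3) to 2638 (without H1). No paired analysis was possible because the labels pair no single mice across groups; the batch they share entered HAL against DMSO as a term (0 of the 9 genes called).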
